A study of Homo sapiens with 30 samples.

Results

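The genes described here are 36 genes of protein folding in the endoplasmic reticulum (ER) and of the unfolded protein response, chosen by symbol from the 25680 gene symbols in the files. Each was represented by its transcript with the highest mean count over 12 libraries, and 36 of 36 were found and tested. They were followed in OPM2 and H929, a pair of human multiple myeloma cell lines, under 4 conditions: each line with the solvent DMSO, and each line with 100 nM dBRD9-A, all for 24 h. dBRD9-A degrades BRD9, a bromodomain protein found in the ncBAF form of the SWI/SNF chromatin remodellers. Each group held 3 libraries of 1 line, and the labels name no genetic change in these cells. The 18 other samples of the series, from cells with hairpins against BRD9 or luciferase and from polysomes of OPM2, are not analysed here.

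The ER folds proteins that enter the secretory pathway, and plasma cells, the origin of myeloma, load it with antibody chains. The chaperone HSPA5 (BiP), the lectins calnexin and calreticulin and the protein disulfide isomerases act on these chains. When unfolded protein builds up, 3 sensors respond: IRE1 (ERN1), which splices XBP1 mRNA, PERK (EIF2AK3), which phosphorylates eIF2α, and ATF6, which is cut to release a transcription factor. XBP1 and ATF6 then raise the transcription of chaperones and folding enzymes. XBP1 is also required to form antibody-secreting cells.

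The cell type label was checked against markers. All 8 plasma cell genes listed (SDC1, TNFRSF17, CD38, PRDM1, IRF4, MZB1, IGJ and SLAMF7) had counts in every group. Counts alone do not settle the label, since all 6 T cell genes listed also had counts in H929 with dBRD9-A. In DMSO the plasma cell genes summed to 10418 to 12580 CPM in OPM2 and 13313 to 14586 in H929. The T cell genes summed to 234 to 249.5 CPM and 449 to 490.6. MPO and COL1A2 were at 0 in all libraries, and CD3D and EPCAM were at or near 0, though CD28 (a T cell list member) was at 234 to 713 CPM, PECAM1 reached 44.9 CPM in H929, CD3E 39.3 and CSF1R 10.3. Depth was 24524193 counts in OPM2 dBRD9-A replicate 2 and 42895389 to 76600945 in the other 11 libraries. That library stood apart. Its log2 values deviated from those of its mates with an SD of 0.79, against 0.11 to 0.24 in the 9 libraries of the other groups. The deviations followed transcript GC content across genes (Spearman -0.70 over 9355 genes, which share 1 library). Trends with GC content were not confined to this library. In H929 dBRD9-A replicates 1 and 2 the Spearman values were -0.63 and 0.64. In OPM2 DMSO replicates 1 and 3 they were 0.41 and -0.46. OPM2 dBRD9-A replicate 2 lay above the mean of its mates by over 0.3 log2 units for 14 of the 36 genes and below by over 0.3 for 9. Treatment calls that change without it are named both ways, as are OPM2 calls lost when the trend with GC content was removed. BRD9 mRNA, which need not follow the degraded protein, was 89.2, 85.95 and 93.9 CPM with DMSO and 67.1, 80.9 and 81.1 with dBRD9-A in OPM2 and 79.9, 103 and 79.9 CPM with DMSO and 59.2, 60.3 and 71.5 with dBRD9-A in H929. It fell in H929 (log2 -0.46, SE 0.13, edgeR adjusted p = 0.0391) and was not called in OPM2 (log2 -0.23, SE 0.13, adjusted p = 0.241).

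Promoter sequence was searched for the elements that XBP1 and ATF6 are known to bind. The window ran from 250 bases before to 50 bases after the first start listed for each gene in RefSeq (GRCh38.p14), and 33 of the 36 genes had an entry. PDIA3, FKBP14 and KDELR2 had none. On both strands, the ER stress response element (ERSE, CCAAT and CCACG with 9 bases between them) was in 7 of the 33 windows (21.2%) and in 22 of all 27305 windows (0.0806%). The related ERSE-II (ATTGG and CCACG with 1 base between them) was in 2 of the 33 (6.06%) and in 15 of all windows (0.0549%). The UPRE core (TGACGTGG) was in 4 of the 33 (12.1%; HYOU1, DNAJC10, TXNDC11 and KDELR3) and in 217 of all windows (0.795%). The ATF4-type element TGATGCAA was in none of the 33 and in 252 of all windows (0.923%). These are matches of letters, and elements outside the window or with other letters were not searched. The 36 genes were chosen as genes of this response, so their higher share of its elements is built into the choice and is no test.

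The 9 promoters that hold an ERSE or ERSE-II are shown. Each is printed 5′ to 3′ along the gene, from 20 bases before its first element (for ERO1LB from the edge of the window) to the base before the start, which is position -1. The fixed letters of the elements are in capitals.
HSPA5: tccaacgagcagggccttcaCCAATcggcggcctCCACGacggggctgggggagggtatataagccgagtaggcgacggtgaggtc
HSP90B1: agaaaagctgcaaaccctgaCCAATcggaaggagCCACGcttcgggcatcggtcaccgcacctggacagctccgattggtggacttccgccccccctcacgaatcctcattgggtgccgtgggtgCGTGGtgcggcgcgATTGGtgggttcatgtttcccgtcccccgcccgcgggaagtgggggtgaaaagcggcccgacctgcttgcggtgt
CALR: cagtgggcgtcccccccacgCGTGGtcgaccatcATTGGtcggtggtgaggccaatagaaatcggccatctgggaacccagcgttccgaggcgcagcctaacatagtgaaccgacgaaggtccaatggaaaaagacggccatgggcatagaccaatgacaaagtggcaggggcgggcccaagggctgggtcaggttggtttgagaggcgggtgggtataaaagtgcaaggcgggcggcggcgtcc
CANX: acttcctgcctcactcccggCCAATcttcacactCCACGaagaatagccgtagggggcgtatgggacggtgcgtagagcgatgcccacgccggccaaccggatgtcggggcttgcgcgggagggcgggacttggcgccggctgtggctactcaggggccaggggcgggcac
CRELD2: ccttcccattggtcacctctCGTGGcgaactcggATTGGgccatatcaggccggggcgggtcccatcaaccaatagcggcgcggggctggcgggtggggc
XBP1: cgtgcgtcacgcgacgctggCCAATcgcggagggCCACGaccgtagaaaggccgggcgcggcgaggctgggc
ERO1LB: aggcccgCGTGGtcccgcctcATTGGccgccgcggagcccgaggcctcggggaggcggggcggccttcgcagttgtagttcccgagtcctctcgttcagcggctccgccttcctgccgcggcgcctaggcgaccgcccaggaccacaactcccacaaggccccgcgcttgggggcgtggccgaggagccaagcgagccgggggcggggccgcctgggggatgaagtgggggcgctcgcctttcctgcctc
HYOU1: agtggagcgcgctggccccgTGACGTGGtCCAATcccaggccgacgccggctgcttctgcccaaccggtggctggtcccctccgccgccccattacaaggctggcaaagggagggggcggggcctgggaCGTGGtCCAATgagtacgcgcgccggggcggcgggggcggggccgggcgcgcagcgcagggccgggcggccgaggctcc
SDF2L1: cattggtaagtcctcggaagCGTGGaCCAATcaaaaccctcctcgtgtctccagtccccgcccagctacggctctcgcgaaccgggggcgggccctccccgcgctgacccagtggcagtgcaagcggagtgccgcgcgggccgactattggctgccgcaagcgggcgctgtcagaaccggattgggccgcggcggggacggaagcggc
HSPA5 has 1 ERSE, first base at -66 (chr9:125241344-125241429, minus strand). HSP90B1 has 2 ERSE, at -194 and, on the other strand, at -89 (chr12:103930196-103930409, plus strand). CALR has 1 ERSE on the other strand, at -225 (chr19:12938364-12938608, plus strand). CANX has 1 ERSE, at -151 (chr5:179698758-179698928, plus strand). CRELD2 has 1 ERSE on the other strand, at -80 (chr22:49918534-49918633, plus strand). XBP1 has 1 ERSE, at -52 (chr22:28800570-28800641, minus strand). ERO1LB (listed as ERO1B) has 1 ERSE on the other strand, at -243 (chr1:236281959-236282208, minus strand). HYOU1 has 2 ERSE-II on the other strand, at -185 and -79, the first overlapping a UPRE core at -188 (chr11:119057206-119057413, minus strand). SDF2L1 has 1 ERSE-II on the other strand, at -188 (chr22:21642094-21642301, plus strand).

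Levels between genes are compared as CPM (counts scaled to library size) per kb of transcript, given as mean ± SD over 3 libraries. In DMSO, XBP1 was among the highest of the 36 at 823 ± 61.4 CPM per kb in OPM2 and 1282 ± 17.8 in H929. CALR stood at 633 ± 5.38 and 986 ± 35.2, HSP90B1 at 507 ± 15.2 and 670.2 ± 18.5, and PPIB, a proline isomerase, at 443 ± 16.7 and 656 ± 48.6. TXNDC5, a thioredoxin-domain isomerase, read 993 ± 115 in OPM2 and 1505 ± 179 in H929. Its counts were within 5% of those of the readthrough symbol BLOC1S5-TXNDC5 in every library, so the reads of the 2 cannot be told apart. At the low end, ERO1LB was at 0.444 ± 0.0644 CPM per kb in OPM2 and 1.93 ± 0.0722 in H929, and KDELR3 at 1.47 ± 0.274 and 1.5 ± 0.348. The 36 genes took 1.44 to 1.55% of counts in OPM2 with DMSO and 1.27 to 1.38% with dBRD9-A. In H929 they took 2.20 to 2.28% with DMSO and 2.20 to 2.31% with dBRD9-A. In these bulk libraries, fewer cells of a kind and less RNA per cell cannot be told apart.

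**Figure D1:**
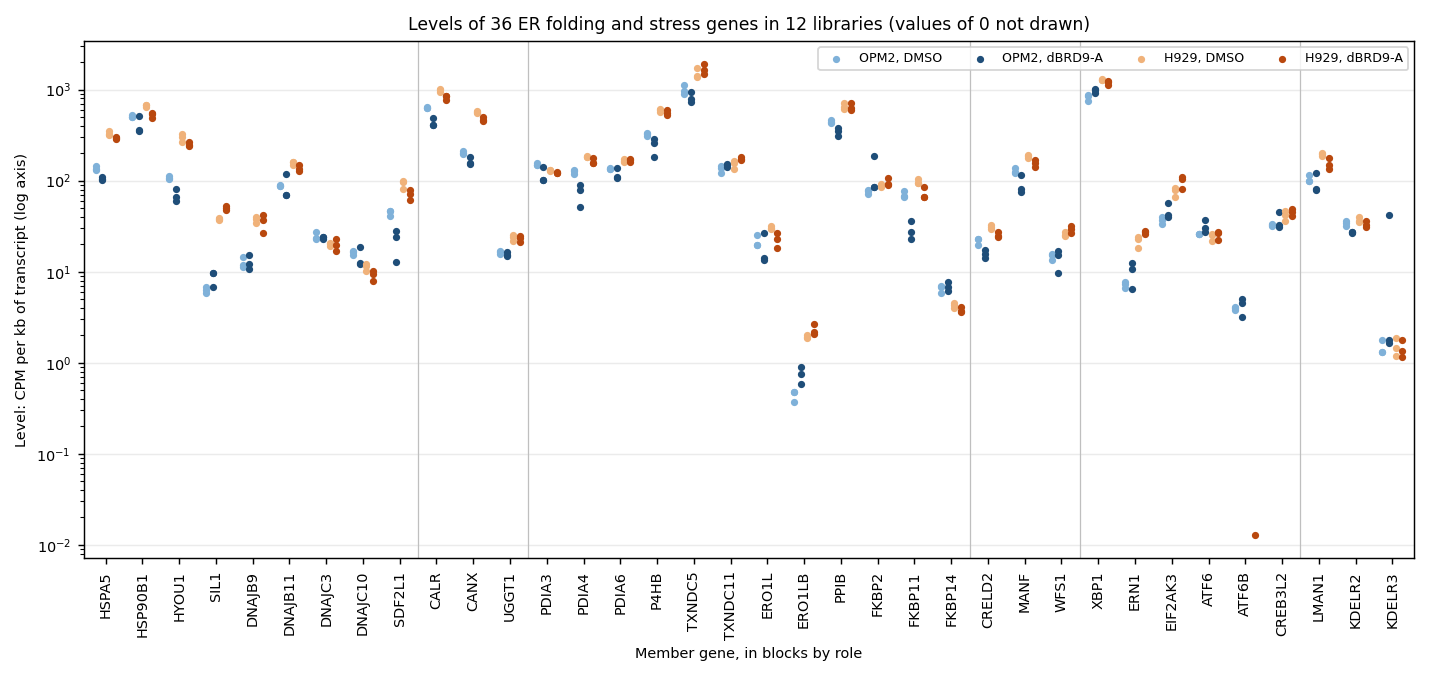
Level of each of the 36 genes in CPM per kb of transcript (log axis), 1 point per library and 1 colour per group, in blocks by role (chaperones, lectin chaperones, folding enzymes, stress proteins, sensors, receptors). XBP1, TXNDC5 and CALR lie near the top and ERO1LB and KDELR3 near the bottom, and the single high KDELR3 point is OPM2 dBRD9-A replicate 2.

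In DMSO, H929 carried more mRNA than OPM2 for most of these genes. With edgeR's quasi-likelihood test, an adjusted p under 0.05 and at least a 2-fold difference, 9 of 36 were higher in H929 and 1 was lower, against 21.4% and 15% of all 16408 genes tested. By adjusted p alone 24 were higher and 4 lower, against 32.6% and 27.5% of all genes. The libraries of the lines did not overlap for 27 genes that were higher in H929 (41.5% of all genes) and 6 that were lower (37.2%). The median log2 difference, H929 minus OPM2, was 0.54 over the 36 and 0.05 over all genes. So the share past 2-fold was near the background in the higher direction, while more members than genes at large were higher at smaller sizes and the median was shifted. Several of these smaller differences did not pass in other settings, as named below.

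Among the chaperones and co-chaperones, 5 of 9 were called higher in H929. HSPA5 was 525, 537 and 573 CPM in replicates 1, 2 and 3 of OPM2 and 1258, 1379 and 1301 in those of H929. HSPA5, the main HSP70 of the ER, was 2.41-fold higher in H929 (log2 1.27, SE 0.10, adjusted p = 2.09e-07), and the lines lay far apart relative to their spread. HYOU1 was 498, 486 and 525 CPM in the OPM2 replicates and 1239.5, 1399 and 1501 in the H929 ones. HYOU1 (GRP170), a large HSP70-like chaperone and nucleotide exchange factor of HSPA5, was 2.74-fold higher (adjusted p = 7.91e-07). SIL1 was 13.4, 11.5 and 12.7 CPM in the OPM2 replicates and 76.05, 76.9 and 73.2 in the H929 ones. SIL1, the other exchange factor of HSPA5, showed the largest called difference toward H929 among the members, 6.02-fold (log2 2.59, SE 0.14, adjusted p = 1.2e-08). DNAJB9 was 30.2, 28.4 and 37.1 CPM in the OPM2 replicates and 87.03, 95.2 and 101 in the H929 ones. DNAJB9 (ERdj4), an XBP1 target that brings HSPA5 to misfolded proteins and to IRE1, was 2.96-fold higher (adjusted p = 1.15e-05). SDF2L1, a partner of DNAJB11 in the HSPA5 cycle, stood at 38.96 ± 2.94 CPM in OPM2 and 80.4 ± 8.82 in H929 (log2 1.05, SE 0.23, adjusted p = 0.0015), only just past 2-fold. Its call was lost in 7 of 22 alternatives. The HSP90 of the ER, HSP90B1, had log2 0.40, SE 0.14 (adjusted p = 0.0248). Its libraries did not overlap, but the size was under 2-fold. With the replicate block HSP90B1 did not pass (0.52, adjusted p = 0.0879). DNAJB11, a J-domain partner of HSPA5, was 1.76-fold higher (adjusted p = 0.00148). The J-domain proteins DNAJC3 (log2 -0.30, adjusted p = 0.0469) and DNAJC10, a disulfide reductase (log2 -0.53, adjusted p = 0.0125), were lower in H929, each by less than 2-fold. With the GC trend removed DNAJC10 passed (-0.39, adjusted p = 0.000906) and DNAJC3 did not (-0.18, adjusted p = 0.206). With the replicate block neither DNAJC3 (-0.14, adjusted p = 0.61) nor DNAJC10 (-0.39, adjusted p = 0.218) passed.

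Of the lectin arm, CANX was 979, 998 and 1039 CPM in the OPM2 replicates and 2802, 2706 and 2868 in the H929 ones. Calnexin (CANX), the membrane-bound lectin chaperone, was 2.78-fold higher in H929 (log2 1.47, SE 0.11, adjusted p = 1.63e-07). Its soluble relative CALR differed by 1.56-fold (log2 0.64, SE 0.10, adjusted p = 0.000165) and UGGT1, the glucosyltransferase that returns misfolded glycoproteins to them, by 1.45-fold (adjusted p = 0.000599). Both had groups that did not overlap and stayed under 2-fold. Of 12 disulfide and proline folding enzymes, ERO1LB alone was called. ERO1LB was 1.87, 2.44 and 2.43 CPM in the OPM2 replicates and 9.63, 9.45 and 10.2 in the H929 ones. This oxidase, which passes oxidising equivalents to disulfide isomerases, was 4.33-fold higher (log2 2.11, SE 0.18, adjusted p = 7.69e-07). Its paralog ERO1L had means of 70.8 ± 10.6 CPM for OPM2 and 99.8 ± 3.79 for H929 (adjusted p = 0.0865). The disulfide isomerase P4HB had log2 0.87 (adjusted p = 0.000246), while PDIA3, the isomerase that works with the lectins, had log2 -0.22 (95% interval -0.50 to 0.06, adjusted p = 0.134). Of the folding enzymes and stress proteins, PDIA4, PDIA6, TXNDC5, PPIB, FKBP11, CRELD2 and MANF were higher in H929 by less than 2-fold, from log2 0.31 (PDIA6, adjusted p = 0.0303) to 0.60 (TXNDC5, adjusted p = 0.00363). With the GC trend removed PPIB (edgeR adjusted p = 0.202), CRELD2 (0.205) and MANF (0.148) did not pass. With the replicate block PDIA4 (edgeR adjusted p = 0.157), PDIA6 (0.111), FKBP11 (0.128), TXNDC5 (0.0642) and CRELD2 (0.0535) did not pass. All kept a positive sign in both settings. FKBP2 (log2 0.24, adjusted p = 0.425) and TXNDC11 (log2 0.18, adjusted p = 0.168) did not pass. FKBP14, a proline isomerase, was lower in H929 (log2 -0.59, adjusted p = 0.00121). With the replicate block FKBP14 did not pass (-0.37, adjusted p = 0.141).

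Both kinase sensors were called higher in H929. ERN1 was 29.7, 26.4 and 30.7 CPM in the OPM2 replicates and 73.6, 92.6 and 95.5 in the H929 ones. ERN1 was 3.02-fold higher (log2 1.59, SE 0.20, adjusted p = 2.02e-05). EIF2AK3 was 172, 156 and 188 CPM in the OPM2 replicates and 308, 371 and 388 in the H929 ones. EIF2AK3 was 2.07-fold higher (log2 1.05, SE 0.16, adjusted p = 0.000122), and its size fell under 2-fold in 4 of 22 alternatives. XBP1 read 1559, 1351 and 1518 CPM in OPM2 and 2271, 2297 and 2334 in H929, a 1.56-fold difference (adjusted p = 0.000154) with no overlap. The 2 XBP1 transcript rows hold the same counts in every library, so the spliced and unspliced forms were not told apart. ATF6 did not pass the test (log2 -0.11, 95% interval -0.42 to 0.20, adjusted p = 0.506). Its relative ATF6B read 9.9, 10.4 and 10.7 CPM in OPM2 and had 0 counts in all 3 H929 libraries. Against 3 counts over the H929 group (0.0173 CPM, counting error only), OPM2 was at least 598-fold higher (adjusted p = 2.05e-08). ATF6B has 8 transcript rows in the files, 6 of them with counts, some repeated under the same accession. How reads were shared among these copies is not known, and its level is uncertain. Of the stress proteins and receptors, WFS1, an ER membrane protein (log2 0.79), and LMAN1, a cargo receptor for glycoproteins (log2 0.90, adjusted p = 0.000505), were higher in H929 by less than 2-fold. KDELR2 (log2 0.12, 95% interval -0.11 to 0.34), which retrieves escaped chaperones from the Golgi, KDELR3 (log2 0.03) and the transcription factor CREB3L2 (log2 0.34, adjusted p = 0.065) did not pass the test.

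**Figure D2:**
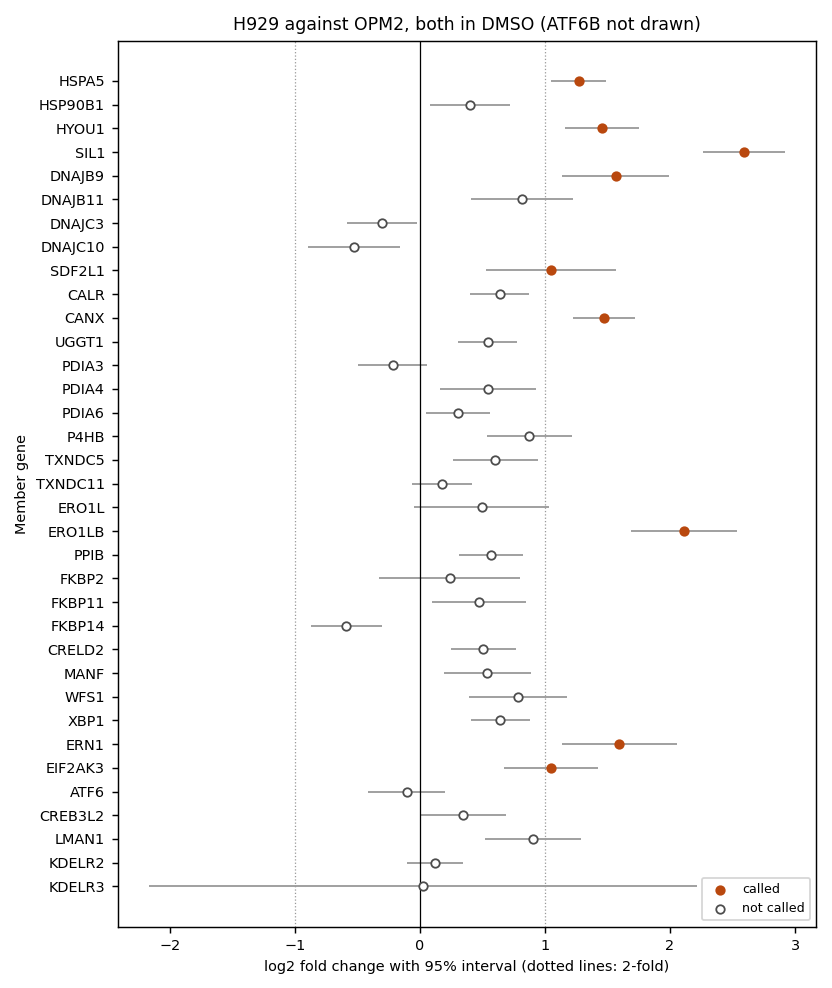
Log2 fold change of 35 genes between the lines in DMSO (H929 minus OPM2, 3 libraries each) with 95% intervals, filled where called and open where not; ATF6B, without counts in H929 DMSO, is not drawn. Most points lie to the right of 0, and SIL1 (2.59) and ERO1LB (2.11) lie farthest.

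With dBRD9-A in OPM2, 10 of the 36 genes fell and 3 rose (edgeR, adjusted p under 0.05), which is 36.1% of the members against 17.4% of all genes. The 10 that fell compare with 7.34% of all genes called lower and the 3 that rose with 10.1% called higher. The median log2 change was -0.17 over the 36 and 0.03 over all genes. Treated and DMSO libraries did not overlap for 13 genes that were lower (18.9% of all genes) and for 5 that were higher (18.8%). The genes that fell span chaperones (HSPA5, HYOU1, SDF2L1), a lectin (CALR), folding enzymes (FKBP11, PDIA3, PDIA4), stress proteins (MANF, CRELD2) and a retrieval receptor (KDELR2). None of the 6 sensors and transcription factors was called. Without OPM2 dBRD9-A replicate 2, 19 genes fell and 4 rose (15.6% and 16.1% of all genes), with a median of -0.30. Other settings called fewer: 6 without DMSO replicate 1 (9.16% of all genes), 6 without DMSO replicate 3 (8.91%), 6 with the replicate number as a block (10.5%) and 2 with OPM2 fitted alone (5.82%). With the trend with GC content removed 16 were called (26.5%), 10 of them among the 13, and CALR, CRELD2 and MANF were not.

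Marker genes moved with the treatment in OPM2. The summed level of the 8 plasma cell markers went from 10418 to 12580 CPM with DMSO to 4867 to 5763 with dBRD9-A, with 3 of 8 called lower. Most of this fall was in IGJ, the antibody J chain (log2 -1.55, SE 0.13, adjusted p = 3.11e-05). The 6 T cell markers went from 234 to 249.5 CPM to 282 to 320.3, with 0 of 3 tested called. The 6 stromal, epithelial and endothelial markers stood at 1.23 to 1.83 CPM and 1.47 to 2.72, with 2 of 4 tested called higher, and the 6 myeloid markers at 0.36 to 0.48 and 0.21 to 0.92, with 0 of 2 called. The part of these markers in the result was not tested.

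The largest fall was in FKBP11, a proline isomerase of secretory cells. FKBP11 was 64.5, 76.8 and 66.6 CPM with DMSO and 26.6, 22.4 and 35.2 with dBRD9-A. It fell 2.46-fold (log2 -1.30, SE 0.17, adjusted p = 0.000419), with a wide gap between the groups, and was called in all 23 alternatives. SDF2L1 was 35.6, 40.8 and 40.5 CPM with DMSO and 21.2, 11.2 and 24.5 with dBRD9-A. It fell 2.04-fold (log2 -1.03, SE 0.23, adjusted p = 0.0101). Its lowest library was replicate 2, without which the log2 change was -0.78 (adjusted p = 0.000278). PDIA4 (ERp72), a disulfide isomerase with several catalytic domains, was 375, 353 and 385 CPM with DMSO and 235, 151 and 265 with dBRD9-A. It fell 1.71-fold (log2 -0.77, SE 0.17, adjusted p = 0.00907), and replicate 2 was again lowest (log2 -0.58 without it). PDIA3 was 452, 457 and 477 CPM with DMSO and 313, 427 and 314 with dBRD9-A. It fell 1.32-fold (log2 -0.40, SE 0.12, adjusted p = 0.0423). Here replicate 2 lay above its mates and close to DMSO, and without it the log2 change was -0.57 (adjusted p = 7.85e-05).

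HYOU1 was 498, 486 and 525 CPM with DMSO and 309, 277 and 374 with dBRD9-A. It fell 1.57-fold (log2 -0.65, SE 0.13, adjusted p = 0.00508). HSPA5 was 525, 537 and 573 CPM with DMSO and 400.1, 438 and 414 with dBRD9-A. It fell 1.31-fold (log2 -0.38, SE 0.09, adjusted p = 0.0159), a small change with tight groups. CALR was 1210.2, 1200.1 and 1221 CPM with DMSO and 789, 929.01 and 789 with dBRD9-A. It fell 1.45-fold (log2 -0.53, SE 0.10, adjusted p = 0.00508), and was not called with the GC trend removed (-0.38, adjusted p = 0.0836). The treated libraries of HYOU1, HSPA5 and CALR all lay below every DMSO library. Of the 9 genes whose promoters are printed above, HSPA5, CALR and CRELD2 with an ERSE and HYOU1 and SDF2L1 with an ERSE-II fell, and ERO1LB rose. HSP90B1, CANX and XBP1 were not called over 12 libraries. FKBP11, PDIA4 and MANF fell too and had none of the searched elements in their windows, and PDIA3 and KDELR2 had no promoter entry. Without replicate 2, HSP90B1 (-0.52) and CANX (-0.41) also fell and XBP1 rose (0.28). So did PPIB, P4HB, DNAJB11, PDIA6, ERO1L and LMAN1 fall in that fit, without any of the searched elements. With the GC trend removed HSP90B1 and CANX were called lower, and CALR, CRELD2, MANF and XBP1 were not called. Whether the elements bear on the changes was not tested.

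CRELD2, an ER-resident stress-induced protein, was 36.02, 31.3 and 35.9 CPM with DMSO and 24.6, 22.3 and 27.6 with dBRD9-A. It fell 1.38-fold (log2 -0.47, SE 0.11, adjusted p = 0.0157), and was not called with the GC trend removed (-0.16, adjusted p = 0.507). MANF, a secreted trophic protein induced by ER stress, was 119.7, 118 and 132 CPM with DMSO and 72.1, 112 and 78.7 with dBRD9-A. It fell 1.41-fold (log2 -0.49, SE 0.15, adjusted p = 0.0424), with replicate 2 near the DMSO level. Without it the log2 change of MANF was -0.72 (adjusted p = 7.33e-05), and with the GC trend removed over all libraries it was -0.30, adjusted p = 0.336, not called. KDELR2 was 98.5, 90.5 and 102 CPM with DMSO and 75.3, 78.3 and 77.3 with dBRD9-A. It fell 1.26-fold (log2 -0.33, SE 0.10, adjusted p = 0.0357). WFS1 was not called (log2 -0.09, 95% interval -0.48 to 0.30; 0.10 without replicate 2).

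Of the genes that rose, SIL1 was 13.4, 11.5 and 12.7 CPM with DMSO and 19.03, 13.5 and 19.2 with dBRD9-A. It rose 1.38-fold (log2 0.47, SE 0.14, adjusted p = 0.0338), opposite to HYOU1, which has the same known role as exchange factor. ERO1LB was 1.87, 2.44 and 2.43 CPM with DMSO and 4.57, 2.95 and 3.82 with dBRD9-A. It rose 1.7-fold (log2 0.76, SE 0.18, adjusted p = 0.0144), from a low level. KDELR3, a relative of KDELR2, was 2.28, 2.26 and 3.09 CPM with DMSO and 2.82, 73.4 and 3.06 with dBRD9-A. Its log2 change of 3.35 (SE 0.99, adjusted p = 0.0375) rests on replicate 2 alone, and without that library it was 0.20 (adjusted p = 0.541). Over 23 alternatives, HYOU1, SDF2L1 and PDIA4 were called in 22, CALR in 21, HSPA5 in 19, CRELD2 and ERO1LB in 18, PDIA3 in 14, KDELR2 in 13, MANF in 12, SIL1 in 9 and KDELR3 in 8.

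Among the genes not called in OPM2, 3 were near the threshold with no overlap between groups: PPIB (log2 -0.34, adjusted p = 0.0518), CANX (log2 -0.31, adjusted p = 0.0627) and P4HB (log2 -0.43, adjusted p = 0.0655). All 3 fell without replicate 2 (log2 -0.42, -0.41 and -0.27). With the GC trend removed CANX was called (-0.43, adjusted p = 0.0034), while PPIB (-0.03, adjusted p = 0.95) and P4HB (-0.20, adjusted p = 0.143) were not. HSP90B1 was 1443, 1414 and 1499.6 CPM with DMSO and 1010.3, 1476 and 1038 with dBRD9-A. Treated replicates 1 and 3 of HSP90B1 lay below all DMSO libraries and replicate 2 among them, so the groups overlapped (log2 -0.31, adjusted p = 0.146; -0.52, adjusted p = 0.000428 without replicate 2). In DNAJB11, DNAJC10, PDIA6, ERO1L and LMAN1, replicates 1 and 3 likewise lay below all DMSO libraries and replicate 2 above all of them. Without replicate 2 their log2 changes ran from -0.33 (PDIA6) to -0.64 (ERO1L). With the GC trend removed they were called as well, except DNAJB11 (-0.13, adjusted p = 0.555). These 5 with CANX, PPIB, P4HB and HSP90B1 are the 9 genes that fell in the fit without replicate 2 and not in that of 12 libraries. XBP1 was 1559, 1351 and 1518 CPM with DMSO and 1793, 1650.1 and 1827 with dBRD9-A. Each treated library was above each DMSO library, but the change of 0.25 (SE 0.10, adjusted p = 0.108) was not called in the fit of 12 libraries. It rose without replicate 2 (0.28, adjusted p = 0.0235) and was not called with the GC trend removed (0.26, adjusted p = 0.0575). ERN1 was 29.7, 26.4 and 30.7 CPM with DMSO and 42.8, 25.7 and 49.5 with dBRD9-A, with treated replicates 1 and 3 above DMSO and replicate 2 below it. ERN1 was not called over 12 libraries (log2 0.45, adjusted p = 0.132) or with the GC trend removed (0.47, adjusted p = 0.0533), and rose without replicate 2 (0.66, adjusted p = 0.000482). The other 3 sensors and factors with reliable levels were at log2 0.33 (EIF2AK3), 0.27 (ATF6) and 0.14 (CREB3L2, a transcription factor of secretory cells), none of them called. Without replicate 2 they were at 0.14, 0.12 and -0.06, again not called. FKBP2, a proline isomerase, was 57.2, 55.8 and 51.9 CPM with DMSO and 62.3, 136 and 61.9 with dBRD9-A, and its log2 change of 0.65 (adjusted p = 0.0856) was 0.16 without replicate 2 (adjusted p = 0.185). DNAJB9, DNAJC3, UGGT1, TXNDC5, TXNDC11 and FKBP14 were not called in either fit. The 23 uncalled genes ranged from -0.43 to 0.65 on the log2 scale.

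**Figure D3:**
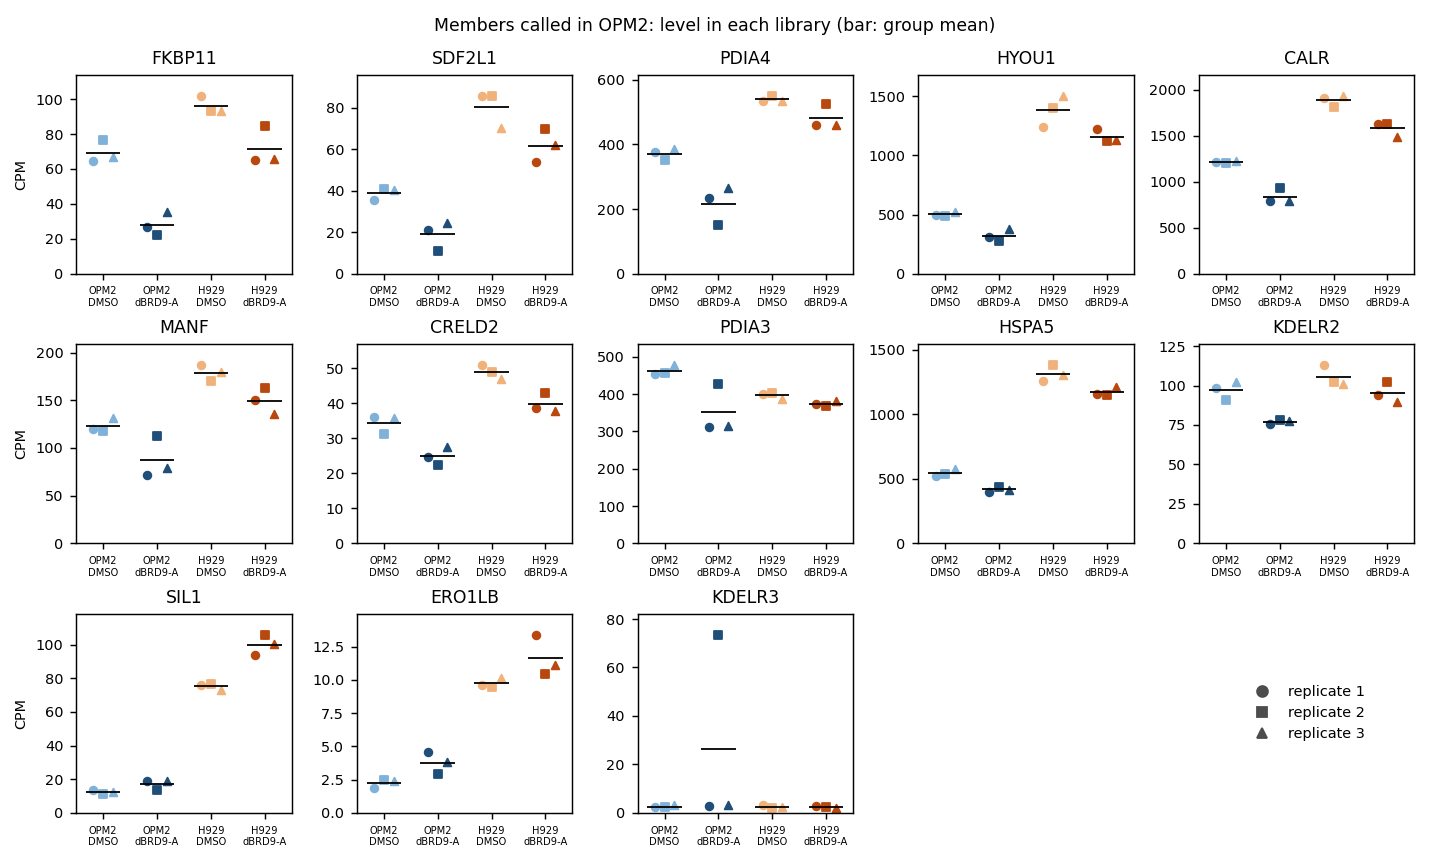
CPM of the 13 genes called in OPM2 in every library (axes from 0), with a marker shape per replicate number and a bar at each group mean. Of the 12 other than KDELR3, each has its 3 treated OPM2 libraries on one side of all 3 DMSO libraries, and KDELR3 is high in 1 library alone.

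With dBRD9-A in H929, edgeR called 0 of the 36 genes, against 13% of all genes. DESeq2 called 1 (19.2% of all genes) and limma-voom with a weight per library called 15 (36%). At an unadjusted p under 0.05 in edgeR there were 7 genes. The share of all genes at that cut was not computed, so the 7 cannot be read against a background. The median log2 change was -0.09 over the 36 and 0 over all genes. Groups did not overlap for 15 genes that were lower (23.6% of all genes) and 4 that were higher (22%). The spread is estimated over all 4 groups, so the outlying OPM2 library enters the H929 test too. Without it, 10 genes fell in H929 and 3 rose (16.5% and 19.2% of all genes). These 13 of 36 were 36.1%, close to the 35.7% of all genes called in that fit. With H929 fitted alone 8 of 35 fell and 3 rose, 31.4% together, close to the 32.3% of all genes.

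In H929 the summed plasma cell markers were 13313 to 14586 CPM with DMSO and 6997 to 8372 with dBRD9-A, with 3 of 8 called lower, IGJ among them (log2 -1.14, SE 0.13, adjusted p = 0.000422). The T cell markers went from 449 to 490.6 CPM to 604 to 750.1, with 2 of 3 tested called higher. The myeloid markers went from 1.57 to 4.16 CPM to 5.25 to 10.6, with 1 of 2 called higher, and the stromal, epithelial and endothelial ones from 33.8 to 45.3 CPM to 41.5 to 65.1, with 2 of 4 called higher. The part of these markers in the H929 values was not tested.

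SIL1 in H929 was 76.05, 76.9 and 73.2 CPM with DMSO and 93.8, 106 and 100.5 with dBRD9-A. The treated libraries were all higher (log2 0.41, SE 0.13, adjusted p = 0.0637), and SIL1 rose without the outlying OPM2 library (0.44, adjusted p = 0.000437). FKBP11 in H929 was 102, 93.1 and 93.3 CPM with DMSO and 64.95, 84.3 and 65.6 with dBRD9-A. All treated libraries were below DMSO (log2 -0.42, SE 0.16, 95% interval -0.80 to -0.05, adjusted p = 0.11; -0.39, adjusted p = 0.017 without that library). HSP90B1 was 1857, 1941 and 1955 CPM with DMSO and 1581, 1404 and 1529 with dBRD9-A. The groups did not overlap (log2 -0.35, SE 0.14, adjusted p = 0.123; -0.32, adjusted p = 0.00452 without that library). CANX was 2802, 2706 and 2868 CPM with DMSO and 2488, 2215 and 2278 with dBRD9-A, also without overlap (log2 -0.26, SE 0.11, adjusted p = 0.128; -0.23, adjusted p = 0.029 without that library). EIF2AK3 was 308, 371 and 388 CPM with DMSO and 505, 381 and 491 with dBRD9-A, with treated replicate 2 inside the DMSO range (log2 0.37, SE 0.16, adjusted p = 0.161; 0.40, adjusted p = 0.0125 without that library). HSPA5 was 1258, 1379 and 1301 CPM with DMSO and 1154, 1148 and 1212 with dBRD9-A, slightly lower in each treated library (log2 -0.16, SE 0.09, 95% interval -0.38 to 0.05). XBP1 was 2271, 2297 and 2334 CPM with DMSO and 2259, 2192 and 2037 with dBRD9-A (log2 -0.09, SE 0.10, adjusted p = 0.631, and 0.0056 with library size alone). ATF6B had 1 count in 1 treated library and none in the other 5, so no change is given. Leaving ATF6B aside, the members ranged from -0.43 to 0.41 on the log2 scale. With the GC trend removed over 12 libraries, CANX (edgeR adjusted p = 0.07) and EIF2AK3 (adjusted p = 0.0547) were again not called in H929. SIL1, FKBP11 and HSP90B1 were called in that fit.

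All 10 genes that fell in OPM2 had a negative log2 change in H929, from -0.42 to -0.08 (PDIA3, which was at 0.01 with library size alone), and 9 of the 10 had treated H929 libraries below all DMSO libraries. Among all 1205 genes that fell in OPM2, 93.1% were negative in H929 and 79% lay below without overlap, shares near those of the members. The 10 had a median of -0.51 in OPM2 and -0.25 in H929, and each had the smaller change in H929, as had 77.5% of the 1205. Choosing the genes by their OPM2 values favours that order. In the fit without OPM2 dBRD9-A replicate 2, 12 genes were called in both lines: CALR, CANX, CRELD2, DNAJC10, ERO1L, FKBP11, HSP90B1, LMAN1, MANF and SDF2L1 fell in both, and SIL1 and ERN1 rose in both. Over all genes 20.1% were called in the same direction in both lines. The 10 members that fell in both were 27.8%, against 10.4% of all genes, and the 2 that rose were 5.56%, against 9.69%. With the GC trend removed over 12 libraries, CALR, CANX, CRELD2, MANF, SDF2L1 and ERN1 were not called in H929. CALR, CRELD2, MANF and ERN1 were then not called in OPM2 either. DNAJC10, ERO1L, FKBP11, HSP90B1, LMAN1 and SIL1 were called in both lines in that fit.

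The difference of the responses (H929 minus OPM2) was tested directly. edgeR called 0 of 36 (0.579% of all genes), DESeq2 called 1 (2.27%) and limma-voom called 8 (5.38%). At an unadjusted p under 0.05 in edgeR there were 5, and the share of all genes at that cut was not computed. FKBP11 had the smallest p. Its response was -1.30 in OPM2 and -0.42 in H929, a difference of 0.88 (95% interval 0.34 to 1.41, adjusted p = 0.16). PDIA4 differed by 0.61 (adjusted p = 0.45), HYOU1 by 0.40 (adjusted p = 0.55) and XBP1 by -0.34 (95% interval -0.67 to -0.01, adjusted p = 0.519), none of which passed. The fifth, KDELR3, rests on the outlying library. Without that library the difference was called for FKBP11 (0.78, adjusted p = 0.0253), PDIA3 (0.52, adjusted p = 0.01) and MANF (0.49, adjusted p = 0.0475), each with the larger fall in OPM2, against 3.04% of all genes. With the GC trend removed only FKBP11 was called (0.80, adjusted p = 0.0419), and not PDIA3 (0.42, adjusted p = 0.104) or MANF (0.05, adjusted p = 0.98). The 8 called by limma-voom were these 3, CALR (0.33, adjusted p = 0.0461), PDIA4 (0.42, adjusted p = 0.0316), PPIB (0.41, adjusted p = 0.0379), ERO1LB (-0.75, adjusted p = 0.0271) and XBP1 (-0.39, adjusted p = 0.0356).

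**Figure D4:**
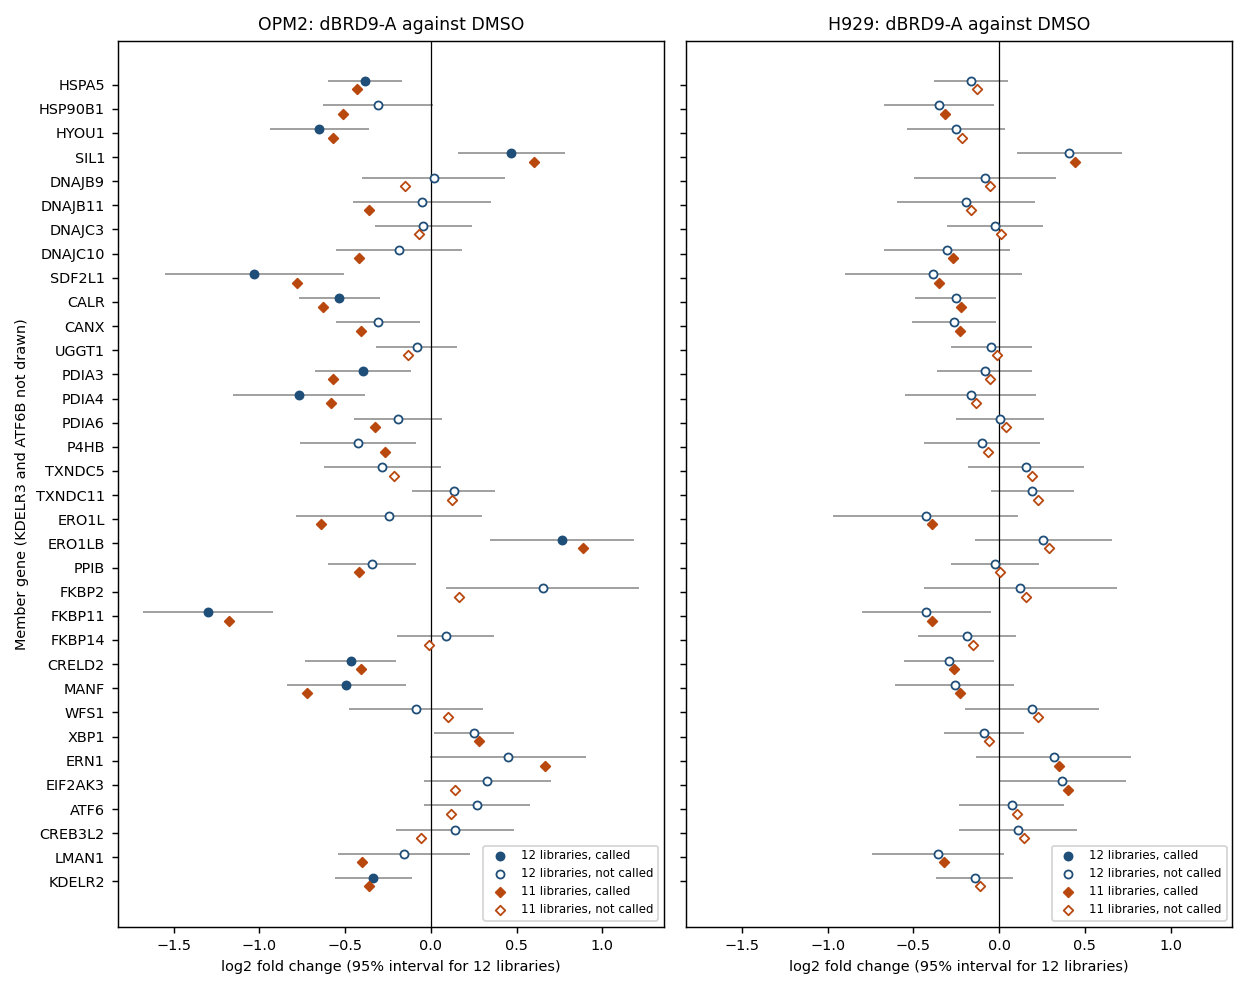
Log2 fold change with dBRD9-A in each line for 34 genes (KDELR3 and ATF6B not drawn): circles with 95% intervals for all 12 libraries, diamonds for the 11 libraries without OPM2 dBRD9-A replicate 2, filled where called. In OPM2 most filled symbols lie left of 0, with FKBP11 farthest (-1.30), and in H929 the circles are all open while 13 diamonds are filled.

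Genes of the wider response were read from 4 further lists. Over all genes, 7.34% fell and 10.1% rose in OPM2, and 5.67% fell and 7.33% rose in H929. Without OPM2 dBRD9-A replicate 2 these shares were 15.6% and 16.1% in OPM2 and 16.5% and 19.2% in H929. Of 14 tested genes of the PERK and ATF4 arm, 5 fell (35.7%) and 1 rose (7.14%) in OPM2, and 1 fell (7.14%) and 2 rose (14.3%) in H929. Without OPM2 dBRD9-A replicate 2, 6 fell (42.9%) and 1 rose in OPM2 and 5 fell (35.7%) and 2 rose in H929. ASNS, which makes asparagine and is an ATF4 target, went from 64.3 ± 8.48 to 27.5 ± 8.16 CPM in OPM2 (log2 -1.22, SE 0.19, adjusted p = 0.00156). TRIB3, a pseudokinase induced by ATF4 and DDIT3, went from 13.6 ± 1.96 to 5.94 ± 1.92 CPM (log2 -1.18, SE 0.22, adjusted p = 0.00438). EIF2S1, the eIF2α subunit that PERK phosphorylates, fell in OPM2 (log2 -0.40, adjusted p = 0.0245) and in H929 (log2 -0.52, adjusted p = 0.00849). CEBPB also fell in OPM2 (log2 -0.47, adjusted p = 0.0181). In H929, ATF3, a stress-induced transcription factor, rose (log2 0.76, SE 0.14, adjusted p = 0.00428), as did VLDLR (log2 1.25, SE 0.30, adjusted p = 0.0193).

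Of 23 other targets of XBP1 and ATF6, 4 fell (17.4%) and 1 rose (4.35%) in OPM2, and 3 fell (13%) and none rose in H929. In either direction the H929 share was that of all genes, 13%. Without that library, 9 fell (39.1%) and 1 rose in OPM2 and 4 fell (17.4%, against 16.5% of all genes) and 1 rose in H929. UBE2J1, the ubiquitin-conjugating enzyme of ER-associated degradation, fell in both lines, from 695 ± 83.1 to 187 ± 46.1 CPM in OPM2 (log2 -1.89, SE 0.16, adjusted p = 2.98e-05) and from 1155 ± 40.02 to 229 ± 9.5 in H929 (log2 -2.33, SE 0.16, adjusted p = 2.24e-05). SERP1, which stabilises membrane proteins at the translocon, fell in OPM2 (log2 -0.43, adjusted p = 0.0168) and H929 (log2 -0.35, adjusted p = 0.048). PDIA5, an isomerase that acts on ATF6, fell in OPM2 (log2 -0.62, adjusted p = 0.0057) and DERL3, a degradation factor of secretory cells, in H929 (log2 -0.86, adjusted p = 0.0378). The median over this list was -0.23 in OPM2 and -0.15 in H929.

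Of 42 other ER folding factors and receptors, 5 rose (11.9%) and none fell in OPM2, and 3 rose (7.14%) and none fell in H929, shares of rising genes near those of all genes (10.1% and 7.33%). Without OPM2 dBRD9-A replicate 2 this was 6 rising (14.3%) and 5 falling (11.9%) in OPM2 and 7 (16.7%) and 2 (4.76%) in H929. SERPINH1, the collagen chaperone, rose in OPM2 from 17.95 ± 2.54 to 48.3 ± 6.69 CPM (log2 1.43, SE 0.16, adjusted p = 0.000186) and in H929 from 7.3 ± 0.857 to 16.03 ± 1.86 (log2 1.13, SE 0.16, adjusted p = 0.00118). PPIC, a cyclophilin, rose in OPM2 (log2 1.37, SE 0.26, adjusted p = 0.00502) and in H929 (log2 2.09, SE 0.27, adjusted p = 0.000823), both from low levels. FKBP9 rose in H929 (log2 0.73, adjusted p = 0.0329). Of 18 signalling partners of the sensors, 2 rose (11.1%) and none fell in each line, in OPM2 near the 10.1% of all genes, and without that library 2 rose and 1 fell in OPM2 and 5 rose and 2 fell in H929. MAP3K5 (ASK1), a kinase downstream of IRE1, rose in OPM2 (log2 0.50, adjusted p = 0.0409) and in H929 (log2 0.55, adjusted p = 0.0346). The eIF2α kinases EIF2AK2 in OPM2 (log2 0.94, adjusted p = 0.0194) and EIF2AK4 in H929 (log2 0.43, adjusted p = 0.0235) also rose. EIF2AK2 was 28.3, 31.7 and 33.9 CPM with DMSO and 44.4, 88.05 and 47.5 with dBRD9-A in OPM2, highest in replicate 2.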

How the data were processed

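RNA was measured in OPM2 and H929 cells with DMSO or dBRD9-A, 3 libraries per group, made with a stranded mRNA kit per the labels' protocols. Per the submitters' processing notes, STAR, featureCounts and the builds hg19 and GRCh37 were used, with no versions. The counts deposited by the authors are whole numbers per RefSeq transcript, not normalised; the FPKM values deposited by the authors served only to recover transcript length. How strand was handled in counting was not given in the sources used here, and overlapping genes cannot be separated. Total counts were 24524193 to 76600945 per library.

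Symbols were reduced to the transcript with the highest mean count. Genes were filtered with filterByExpr by group (16408 left), scaled by TMM and tested in R 4.3.3 with edgeR 4.0.16 (quasi-likelihood, 1 mean per group, 1 spread per gene over 4 groups, 8 residual degrees of freedom, Benjamini-Hochberg over all genes). The script was tested on simulated counts that held no outlying library and no trend with GC content. That run therefore does not show how the calls behave under either. The comparison of the lines shares its DMSO libraries with both treatment comparisons. The call threshold was an adjusted p under 0.05, with at least a 2-fold difference between the lines. Levels are CPM with TMM factors. GC content came from transcripts of another build and covers 98.07% of genes tested.

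The 24 alternatives were RLE factors, library size alone, DESeq2 1.42.0, limma-voom (limma 3.58.1) with a weight per library, no low-count filter, at least 1 CPM in 3 libraries, each line by itself, leaving out each library, a replicate block, the sum over transcripts, and removal of the GC trend, without and with the block. Members and lists were chosen with earlier results of these data known. All members may be named, and of each further list at most 4 called genes per comparison, by adjusted p. The labels do not say whether replicates were separate cultures; p-values then describe only how these libraries scatter, which may be technical.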

Additional observations from a re-analysis of the deposited data

How the results depend on the processing

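The members called between the lines in DMSO numbered 8 to 10 in every alternative run, with 28.8% to 37.9% of all genes called. This count uses the 2-fold rule, and differences under 2-fold were not counted by setting. In OPM2 the 13 called became 24 with limma-voom (44.1% of all genes), 2 with OPM2 fitted alone (CALR and FKBP11, 5.82% of all genes) and 6 with the replicate block (10.5%). Leaving out 1 library gave 6 to 23. There were 6 without DMSO replicate 1 (9.16% of all genes) or 3 (8.91%) and 8 without DMSO replicate 2 (8.28%) or dBRD9-A replicate 1 (13.7%). There were 23 without dBRD9-A replicate 2 (31.7%). With the GC trend removed the count was 16 (26.5% of all genes), with 10 of the 13 among them. In H929 the 0 called became 1 with RLE factors (12.6% of all genes), DESeq2 (19.2%), the 1 CPM filter (14.9%) or the GC trend removed with the replicate block (17.1%). They became 2 with library size alone (13.5%), 11 with H929 fitted alone (32.3%), 6 after GC removal (22.3%) and 15 by limma-voom (36%). Leaving out 1 library gave 0 to 13 (4.86% to 35.7% of all genes), the 13 without OPM2 dBRD9-A replicate 2 (35.7%). For the difference of the responses the 0 called became 1 with DESeq2 (2.27% of all genes) or after GC removal (1.4%) and 8 by limma-voom (5.38%). When 1 library was left out there were 0 to 3 (0.21% to 3.04% of all genes), with 1 without OPM2 dBRD9-A replicate 3 (0.576%). Apart from construction (fewer samples, another estimate of the spread), the cause of these changes was not tested.

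The sign of the log2 value changed in at least 1 alternative for 4 of 36 members between the lines, 7 in OPM2, 8 of 35 in H929 and 15 of 36 for the difference of the responses, all of them members not called over 12 libraries. Signs turned between the lines for ATF6 0.0121 and FKBP2 -0.0309 with the GC trend removed, KDELR2 -0.0048 and KDELR3 -0.0924 with library size alone, KDELR3 -0.0017 with transcripts summed. With 1 library left out they turned between the lines for KDELR3 (-0.1997 to 0.1931). Signs turned in OPM2 for DNAJB9 -0.1271, FKBP14 -0.0692 and WFS1 0.2294 with the GC trend removed, DNAJB9 -0.1234, FKBP14 -0.0749 and WFS1 0.2242 with that and the block, CREB3L2 -0.0563, DNAJB9 -0.1367 and WFS1 0.0673 by limma-voom, DNAJB9 -0.0043 without a filter. With 1 library left out they turned in OPM2 for ATF6B (-0.0356 to 0.2536), CREB3L2 (-0.0588 to 0.2307), DNAJB11 (-0.3619 to 0.0691), DNAJB9 (-0.1506 to 0.1345), DNAJC3 (-0.1013 to 0.0401), FKBP14 (-0.0105 to 0.1608) and WFS1 (-0.2449 to 0.101). Signs turned in H929 for DNAJC3 0.0162 and PPIB 0.0142 by DESeq2, DNAJC3 0.012 with the GC trend removed, DNAJC3 0.0092 with that and the block, DNAJC3 0.0161 and PPIB 0.0142 with RLE factors, DNAJC3 0.0158 and PPIB 0.0152 with the 1 CPM filter, DNAJB9 0.0084, DNAJC3 0.0696, KDELR3 0.0142, PDIA3 0.01, PPIB 0.0699, UGGT1 0.0486 and XBP1 0.0056 with library size alone, PDIA6 0 by limma-voom. With 1 library left out they turned in H929 for DNAJB9 (-0.1905 to 0.1179), DNAJC3 (-0.1071 to 0.114), KDELR3 (-0.2296 to 0.148), PPIB (-0.062 to 0.0726) and UGGT1 (-0.0692 to 0.0535).

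No pairing by replicate number was assumed. Same-numbered deviations correlated at 0.30, -0.02 and -0.12 in OPM2 and -0.12, -0.17 and -0.12 in H929. The 0.30 was the highest value in OPM2, while not every library correlated best with its own number. These deviations are from group means, which in OPM2 include the outlying replicate 2, and they carry trends with GC content. Such correlations therefore cannot settle whether the numbers mark pairs. In H929 the highest correlations joined differing numbers, DMSO replicate 1 with dBRD9-A replicate 2 (0.52), 2 with 3 (0.70) and 3 with 1 (0.65), and the labels name no pairing for them. With the replicate block, 6 members were called in OPM2 (10.5% of all genes), 0 in H929 (6.78%) and 0 for the difference (0.158%). Over all genes, calls in OPM2 numbered 2857 as reported, 1729 with the block and 5277 without dBRD9-A replicate 2, and in H929 2134, 1112 and 5946. With library size alone the share of calls that were higher was 69.4% in OPM2 and 71.8% in H929, against 57.8% and 56.4%.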
